A study of Mus musculus with 4 samples.

Results

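The BCL-2 family decides whether mitochondria release the proteins that start apoptosis, and 10 of its genes were followed here in mouse macrophages. They were taken as a named list: the anti-apoptotic genes Bcl2, Bcl2l1 and Mcl1, the pore-forming effector genes Bax and Bak1, and the BH3-only genes Bcl2l11, Bid, Bbc3, Pmaip1 and Bad. Each gene was read from the array probe that is annotated to it alone, and where a gene has several such probes from the one with the highest mean over the arrays. Of the 10 genes, 9 had such a probe, out of 19938 genes measured that way, and each of the 9 had exactly 1. Bax was not analysed here.

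In this family the anti-apoptotic proteins hold the effectors in check at the outer mitochondrial membrane. BH3-only proteins bind the anti-apoptotic proteins, and some of them also activate the effectors directly, after which pores form and cytochrome c leaves the mitochondria to switch on caspases. In macrophages the family sets survival during infection, and caspase-8, which can cleave BID, is also the enzyme that holds back necroptosis, a form of cell death driven by RIPK1 and RIPK3.

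The cells were macrophages grown for 7 days from bone marrow of female BalbC mice in L929-conditioned medium, which supplies macrophage growth factor and was common to all groups. They were given LPS (a bacterial ligand of TLR4, 10 ng/ml) with zVAD (a caspase inhibitor, 50 µM) and Nec-1 (an inhibitor of RIPK1 kinase, 30 µM), LPS with zVAD, LPS alone, or no treatment (control). Each of these 4 groups had 1 Affymetrix array, so differences lack a replicate check and carry no p-value, and whether one exceeds the spread between cultures cannot be stated. The sources used here do not state treatment times, the age of the mice or any pooling of animals. Arrays of zVAD alone, Nec-1 alone and LPS with Nec-1 were not analysed here, so the effect of either inhibitor on its own cannot be told apart.

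Values are log2 signals, and a ratio is the difference of 2 log2 signals, so that a ratio of 1 is 2-fold. A gene was called higher or lower at 2-fold or more, a rule of size and not a test. Counts over all genes are of the 12203 genes whose highest signal reached the median of all values (log2 6.47), and all 9 measured family genes passed that filter. The arrays had median log2 signals of 6.415 to 6.517. The 8 macrophage markers, among them Adgre1, Csf1r and Cd68, stood between log2 10.19 and 14.05 on the 4 arrays. The T and NK cell, B cell, erythroid and stromal marker lists stood between 4.50 and 8.82. Past the filter were 2 of 6 measured T and NK cell, 1 of 4 B cell, 1 of 4 erythroid and 4 of 5 stromal markers. All 6 neutrophil markers passed it and stood between 6.69 and 10.48, with a mean of 8.51 with LPS/zVAD/Nec-1, 8.36 with LPS/zVAD, 8.88 with LPS and 8.44 in control, and their part in the results was not tested. In cultures measured in bulk, fewer cells of a type and less RNA per cell cannot be told apart.

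**Figure D1:**
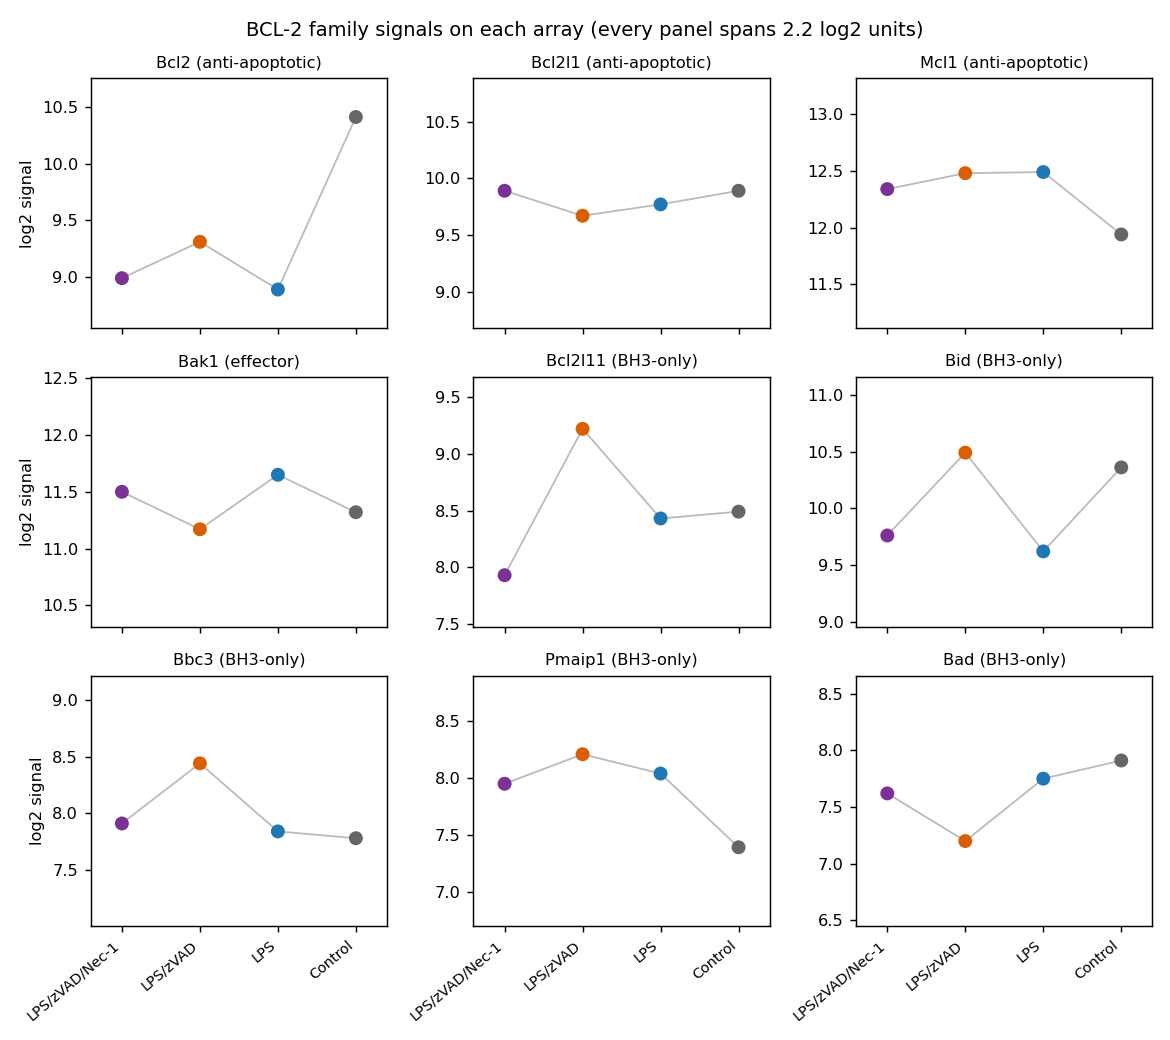
Log2 signal of the 9 measured BCL-2 family genes on the 4 arrays, 1 point per array, with lines to guide the eye; each panel covers the same height at its own level. Bcl2 stands apart in control (10.41), while Bcl2l11, Bid, Bbc3 and Pmaip1 are highest with LPS/zVAD and Bad, Bak1 and Bcl2l1 are lowest there.

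Among the anti-apoptotic genes, Bcl2 carried the one 2-fold difference between LPS and control. Bcl2, the founding member of the family, had log2 signals of 8.99 with LPS/zVAD/Nec-1, 9.31 with LPS/zVAD, 8.89 with LPS and 10.41 in control. The 3 arrays with LPS lay within 0.42 of each other, and all lay below control. Its ratio of LPS to control was -1.52, which is 2.87-fold lower. In that comparison 2.53% of all genes were as low or lower, and 7.18% had a ratio as far from 0 either way. The comparisons with inhibitors stayed under 2-fold (0.42 for LPS/zVAD over LPS and -0.32 for LPS/zVAD/Nec-1 over LPS/zVAD). The 250 bases before its RefSeq start (GRCm38.p6, chr1:106714291-106714540, minus strand) are shown because Bcl2 had the widest range of the family; capitals mark the GC box letters GGGCGG on either strand.
Bcl2: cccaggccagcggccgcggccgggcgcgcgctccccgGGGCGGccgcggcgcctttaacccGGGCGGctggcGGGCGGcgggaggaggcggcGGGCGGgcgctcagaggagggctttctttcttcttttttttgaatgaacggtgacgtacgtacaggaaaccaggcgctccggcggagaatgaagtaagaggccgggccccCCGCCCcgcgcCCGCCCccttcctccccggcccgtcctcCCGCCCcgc
They hold 7 GC boxes, 74.8% G and C and 36 CpG pairs, against medians of 52.4% and 6 CpG pairs over the 32851 windows of all genes.

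The other anti-apoptotic genes moved less. Mcl1 encodes a short-lived guardian that is made anew in stimulated cells, and it had signals of 12.34 with LPS/zVAD/Nec-1, 12.48 with LPS/zVAD, 12.49 with LPS and 11.94 in control. The 3 arrays with LPS were thus all above control, by 1.47-fold for LPS alone (ratio 0.56), and 33.3% of all genes had a ratio as far from 0. Between LPS/zVAD and LPS it differed by -0.01. Bcl2l1, the gene of BCL-XL, had signals of 9.89 with LPS/zVAD/Nec-1, 9.67 with LPS/zVAD, 9.77 with LPS and 9.89 in control. Its whole range of 0.22 was the smallest of the family, and 91.2% of all genes had a range at least as wide. A gene-level probe does not separate the splice forms of Bcl2l1, Mcl1 or Bcl2l11, some of which differ in function.

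Bak1, the measured effector, encodes a protein that sits in the mitochondrial membrane and forms pores when activated. Its signals were 11.50 with LPS/zVAD/Nec-1, 11.17 with LPS/zVAD, 11.65 with LPS and 11.32 in control. LPS/zVAD was the lowest array and LPS the highest, with a ratio of -0.48 between them (1.39-fold lower), and no comparison reached 2-fold.

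Among the 5 BH3-only genes, Bcl2l11 had the one 2-fold difference, between LPS/zVAD/Nec-1 and LPS/zVAD. Bcl2l11 encodes BIM, which binds every anti-apoptotic member and activates the effectors. Its signals were 7.93 with LPS/zVAD/Nec-1, 9.22 with LPS/zVAD, 8.43 with LPS and 8.49 in control. LPS/zVAD was thus the highest array and LPS/zVAD/Nec-1 the lowest, below control as well as below LPS. Adding Nec-1 to LPS/zVAD gave a ratio of -1.28, which is 2.44-fold lower, and 1.70% of all genes were as low or lower. Adding zVAD to LPS gave 0.79 (1.73-fold higher, as high in 4.90% of genes), and both inhibitors together against LPS alone gave -0.50 (1.41-fold lower, as low in 4.11% of genes). LPS alone lay at -0.06 to control, a sign that turned to 0.05 when the arrays were centred on their medians and after cyclic loess.

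Bid encodes a protein that caspase-8 cleaves into an active fragment. It had signals of 9.76 with LPS/zVAD/Nec-1, 10.49 with LPS/zVAD, 9.62 with LPS and 10.36 in control. The LPS/zVAD array was close to control, while LPS and LPS/zVAD/Nec-1 formed the lower pair. Its ratios were -0.74 for LPS to control, 0.88 for LPS/zVAD to LPS and -0.73 for LPS/zVAD/Nec-1 to LPS/zVAD, or 1.67-fold lower, 1.84-fold higher and 1.66-fold lower. None reached 2-fold as deposited, although the zVAD ratio was 1.01 after cyclic loess. The arrays measure RNA, and cleavage of the BID protein was not measured here.

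Bbc3 encodes PUMA, a BH3-only protein best known as a target of the transcription factor p53. Its signals were 7.91 with LPS/zVAD/Nec-1, 8.44 with LPS/zVAD, 7.84 with LPS and 7.78 in control. The LPS/zVAD array stood above the 3 others, which lay close together. The ratios were 0.60 for LPS/zVAD to LPS (1.51-fold higher) and -0.53 for LPS/zVAD/Nec-1 to LPS/zVAD (1.45-fold lower). Pmaip1 encodes NOXA, which binds MCL-1, and had 7.95 with LPS/zVAD/Nec-1, 8.21 with LPS/zVAD, 8.04 with LPS and 7.39 in control. All 3 arrays with LPS were above control, by 1.56-fold for LPS alone (ratio 0.64), and the inhibitors moved it by 0.26 at most.

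Bad encodes a BH3-only protein that binds BCL-2 and BCL-XL and is switched off by phosphorylation. It ran the other way, with 7.62 in LPS/zVAD/Nec-1, 7.20 in LPS/zVAD, 7.75 in LPS and 7.91 in control. LPS/zVAD was its lowest array, 1.47-fold below LPS (ratio -0.56), and LPS/zVAD/Nec-1 was 1.34-fold above LPS/zVAD (0.42).

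The 250 bases before the first RefSeq start of Bcl2l11 (chr2:128125788-128126037, plus strand), Bid (chr6:120916825-120917074, minus strand) and Bbc3 (chr7:16309333-16309582, plus strand) in GRCm38.p6 are shown because these 3 genes had the highest ratios of the family when zVAD was added. Capitals mark an NF-kB type motif (GGGNNTTCC), CCAAT boxes and the GC boxes described for Bcl2, each on either strand.
Bcl2l11: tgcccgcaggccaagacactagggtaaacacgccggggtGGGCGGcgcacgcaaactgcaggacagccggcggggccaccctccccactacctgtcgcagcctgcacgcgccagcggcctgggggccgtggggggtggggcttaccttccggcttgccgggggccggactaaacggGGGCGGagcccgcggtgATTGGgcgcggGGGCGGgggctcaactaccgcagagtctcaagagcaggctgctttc
Bid: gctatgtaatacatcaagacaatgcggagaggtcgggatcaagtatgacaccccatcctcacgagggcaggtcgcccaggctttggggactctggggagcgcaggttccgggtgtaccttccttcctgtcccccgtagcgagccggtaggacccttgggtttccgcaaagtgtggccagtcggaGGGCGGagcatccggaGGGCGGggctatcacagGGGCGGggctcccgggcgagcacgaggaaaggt
Bbc3: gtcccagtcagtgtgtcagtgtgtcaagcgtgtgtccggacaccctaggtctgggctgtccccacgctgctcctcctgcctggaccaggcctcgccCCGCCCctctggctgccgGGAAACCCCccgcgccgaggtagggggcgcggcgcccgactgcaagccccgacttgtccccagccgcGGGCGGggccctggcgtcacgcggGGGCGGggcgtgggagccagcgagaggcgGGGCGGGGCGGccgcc
Bcl2l11 has 3 GC boxes and 1 CCAAT box, Bid has 3 GC boxes, and Bbc3 has 5 GC boxes, of which the 2 nearest the start overlap by 1 base. The NF-kB type match of Bbc3, GGAAACCCC, lies at -136 to -128 from that start. Over all genes, 32.7% of windows hold a GC box, 33.8% a CCAAT box and 4.98% the NF-kB type motif in these 250 bases.

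RefSeq windows with 50 further bases after the start were searched for 9 of the 10 genes, Bax included, in 15 windows. Besides Bbc3, the NF-kB type motif was found in 1 window of Bcl2l1, as GGAAGTCCC at -122 to -114 from that start. No window held the interferon response type motif (GAAANNGAA), the AP-1 motif (TGANTCA) or the CRE (TGACGTCA), which occur in 8.56%, 7.81% and 1.79% of all windows of that length. The ratios of LPS to control were 0.06 for Bbc3 and -0.12 for Bcl2l1. A match is a description of letters, and no factor binding was measured.

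**Figure D2:**
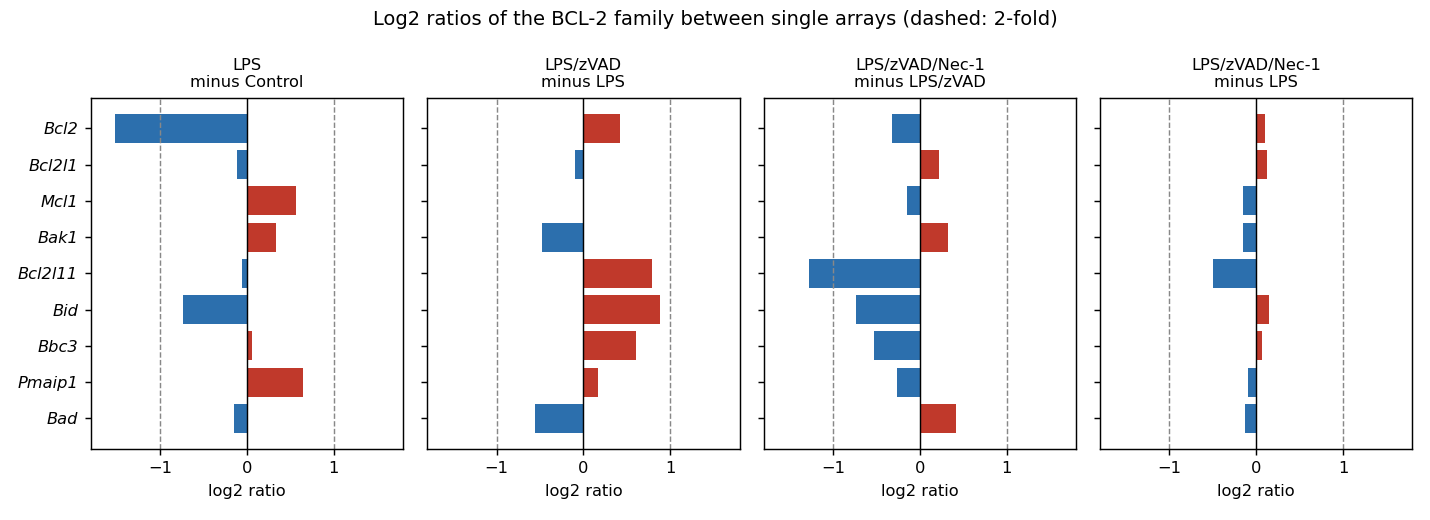
Log2 ratios of the 9 genes in the 4 comparisons between single arrays, with dashed lines at 2-fold. The 2 bars past a line are Bcl2 for LPS against control (-1.52) and Bcl2l11 for LPS/zVAD/Nec-1 against LPS/zVAD (-1.28).

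Taken by comparison, LPS against control asked which family genes differ in the response to LPS. Of the 9 genes, 1 was lower (Bcl2) and 0 were higher, while over all genes 7.2% were lower and 8.24% higher. At 1.5-fold, 2 were lower (Bcl2 and Bid) and 1 higher (Pmaip1), against 17.3% and 14.4% of all genes. With centred arrays Mcl1 was also past 1.5-fold (0.66), which made 2 higher. Both counts are near what all genes show. The family's median ratio was -0.06, and that of all genes -0.12, which centring shifted by 0.103. In the same comparison 5 of 6 neutrophil markers had positive ratios (median 0.35), with Ly6g at log2 7.72 with LPS and 6.69 in control, and 5 of 5 stromal markers had negative ones (median -0.30). Positive ratios were also seen for 5 of 8 macrophage (median 0.28) and 2 of 4 B cell markers (0.07). Negative ones were seen for 5 of 6 T and NK cell (-0.14) and 4 of 4 erythroid markers (-0.07).

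LPS/zVAD against LPS asked what the caspase inhibitor adds. At 2-fold, 0 of 9 genes were higher and 0 lower, against 3.25% and 3.59% of all genes. At 1.5-fold, 3 of 9 were higher, namely Bid, Bcl2l11 and Bbc3, against 7.96% of all genes, and 0 were lower, against 13.2%. These 3 are BH3-only genes, and the calls depend on the scaling. With centred arrays Bbc3 was at 0.55, short of 1.5-fold, and Bad at -0.60, past it, so that 2 genes were higher and 1 was lower. The 5 listed BH3-only genes had ratios of 0.17 to 0.88 in 4 cases and -0.56 for Bad (median 0.60). Bmf, Bik and Hrk, BH3-only genes outside the list of 10, had 0.09, 0.03 and 0.29. The 3 anti-apoptotic genes had ratios of -0.10 to 0.42 (median -0.01), and the median of all genes was -0.05. All genes depend on scaling here: 47.5% of those past 2-fold were higher as deposited, 42.1% with centred arrays, 57.8% after quantile normalization and 59.7% after cyclic loess. All 6 neutrophil markers had negative ratios in the same comparison (median -0.46), and Mmp8 was lower, at log2 9.46 with LPS/zVAD and 10.48 with LPS. Ratios were negative for 7 of 8 macrophage (median -0.21) and 3 of 4 B cell markers (-0.33), and positive for 6 of 6 T and NK cell (0.31), 4 of 5 stromal (0.29) and 4 of 4 erythroid markers (0.06). The part of these marker differences in the family's ratios was not tested. This comparison and LPS against control share the LPS array, so any error of that array enters both with opposite sign. Opposite ratios of a gene or a marker list in these 2 comparisons, such as those of Bid, are therefore not independent.

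LPS/zVAD/Nec-1 against LPS/zVAD asked what the RIPK1 inhibitor adds. Bcl2l11 was the 1 gene of 9 that was lower, and 0 were higher, against 3.32% and 1.14% of all genes. At 1.5-fold, Bcl2l11 and Bid were lower (2 of 9, against 8.19% of all genes) and 0 were higher (against 7.31%). After cyclic loess Bbc3 was lower as well (-0.59), which made 3. The median ratio was -0.53 for the 5 listed BH3-only genes, -0.15 for the anti-apoptotic genes and 0.07 for all genes. Of those 5 genes, 4 had negative ratios (-1.28 to -0.26) and Bad had 0.42. Bmf, Bik and Hrk, BH3-only genes outside the list of 10, had 0.09, 0.12 and -0.06. This comparison and the one before it share the LPS/zVAD array, so any error of that array enters both with opposite sign, and opposite ratios of a gene in the 2 are not independent.

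LPS/zVAD/Nec-1 against LPS, which leaves out the LPS/zVAD array, had the narrowest range of ratios over the 9 genes. At 2-fold, 0 of 9 genes were higher and 0 lower, against 0.0738% and 0.541% of all genes, and at 1.5-fold the counts were again 0 and 0, against 0.738% and 2.75%. Bcl2l11 had the ratio farthest from 0, at -0.50, and the other 8 genes lay between -0.15 and 0.15. Mmp8 was lower here too, at log2 9.34 with LPS/zVAD/Nec-1 and 10.48 with LPS, while control had 9.52. Ratios were negative for 5 of 6 neutrophil (median -0.17), 7 of 8 macrophage (-0.09) and 4 of 4 B cell markers (-0.26). They were positive for 6 of 6 T and NK cell (0.29), 3 of 5 stromal (0.36) and 4 of 4 erythroid markers (0.17). This comparison and LPS/zVAD against LPS share the LPS array. The lower calls of Mmp8 and the like signs of the marker lists are therefore not independent. LPS against control also holds that array, with opposite sign.

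**Figure D3:**
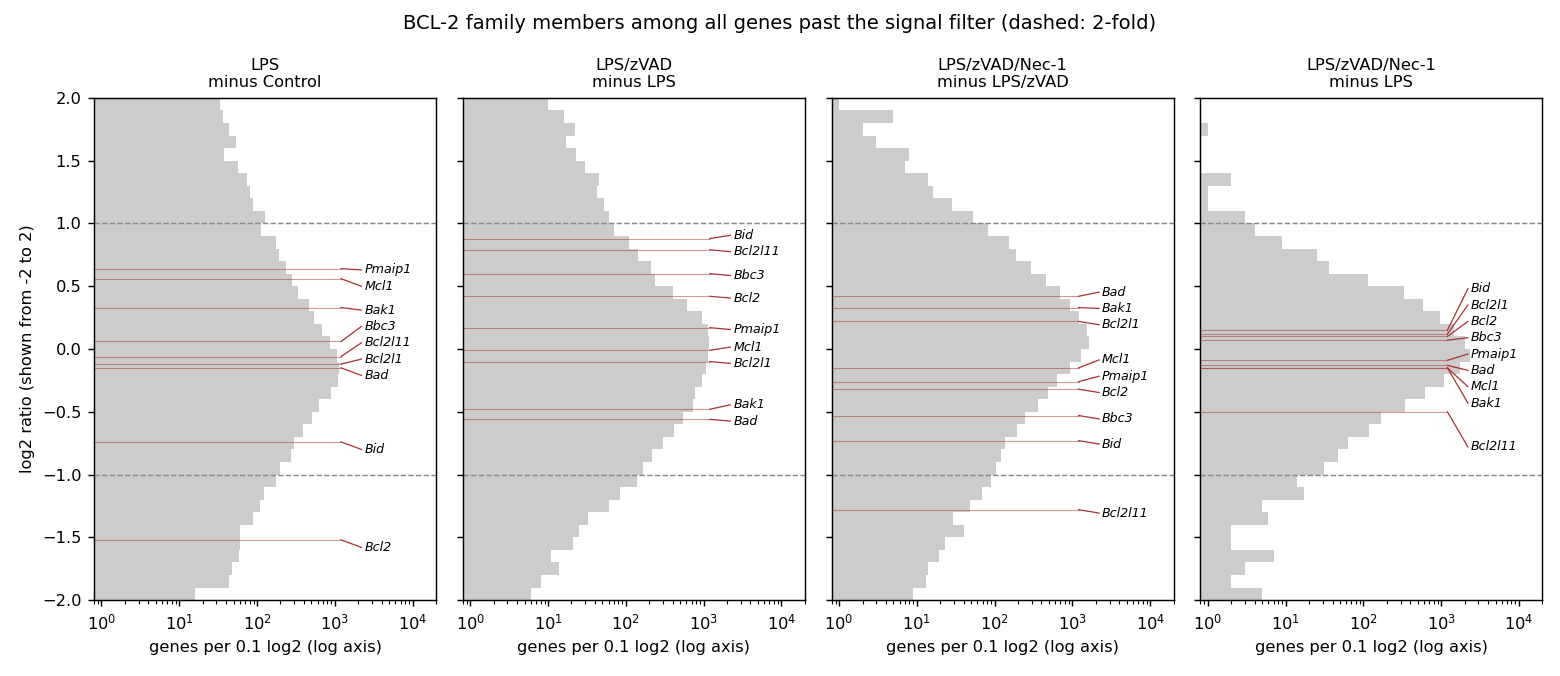
Where the 9 genes fall among the 12203 genes past the signal filter in each comparison: grey bars count genes per 0.1 log2 (log axis; ratios beyond 2 in either direction are not drawn), red lines mark the family genes, and dashed lines mark 2-fold. Bcl2 lies far down in LPS against control and Bcl2l11 in LPS/zVAD/Nec-1 against LPS/zVAD, while most family genes lie in the bulk.

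The profiles of Bcl2 and Bcl2l11 were set against those of filtered genes over the 4 arrays. These were the family genes whose signals spanned 1 or more on the log2 scale. Predicted genes, RIKEN genes and numbered clones were left out of the search. Likeness was the root mean square difference of log2 signals after each gene was centred on its own mean. Nearest to Bcl2 were Bub1, a kinase gene of the mitotic checkpoint (0.013), Knstrn, which encodes a kinetochore protein (0.044), and Tfrc, the transferrin receptor gene (0.046). Bub1 had 9.83 with LPS/zVAD/Nec-1, 10.13 with LPS/zVAD, 9.70 with LPS and 11.23 in control. Nearest to Bcl2l11 were Zfp451, a zinc finger gene (0.058), Cdk17, a cyclin-dependent kinase gene (0.066), and Sh2b2, which encodes a signalling adaptor (0.072). Cdk17 had 8.94 with LPS/zVAD/Nec-1, 10.25 with LPS/zVAD, 9.38 with LPS and 9.62 in control. The likeness rests on 4 arrays and is a description.

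**Figure D4:**
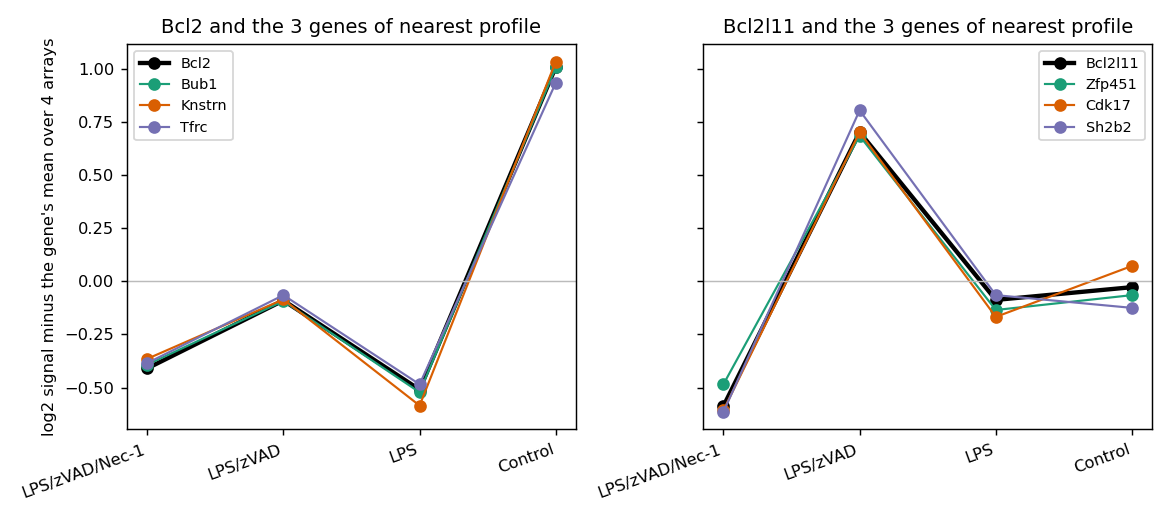
Log2 signals of Bcl2 and Bcl2l11 (black) and of the 3 genes nearest to each, centred on each gene's mean over the 4 arrays. The Bcl2 group is highest in control and the Bcl2l11 group is highest with LPS/zVAD and lowest with LPS/zVAD/Nec-1.

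The rest of the family was described from a list of 16 further genes, of which 13 were measured and 10 passed the filter. With LPS, 1 of the 10 was higher than control and 0 were lower, near the 8.24% and 7.2% of all genes, and in the comparisons with inhibitors 0 passed 2-fold either way. The gene higher with LPS was Bcl2a1c, a copy of the anti-apoptotic A1 gene, with 11.94 in LPS/zVAD/Nec-1, 11.93 in LPS/zVAD, 12.28 in LPS and 9.58 in control, so that all 3 arrays with LPS were above control, by 6.49-fold for LPS alone. The mouse A1 copies are near-identical, and 3 further probes are annotated to several of them, so this signal cannot be given to 1 copy. Bnip3, a gene of hypoxia and mitophagy, had 11.06 with LPS/zVAD/Nec-1, 11.20 with LPS/zVAD, 12.02 with LPS and 11.68 in control. Its ratio of LPS/zVAD/Nec-1 to LPS was -0.96, just under 2-fold, and a second probe gave -0.81. The BH3-only genes Bmf, Bik and Hrk had ratios between -0.27 and 0.29 in the 4 comparisons.

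Downstream of the mitochondria, 17 of 19 listed genes of the apoptosome, the caspases and their inhibitors were measured, and all 17 passed the filter. With LPS, 4 of 17 were higher and 1 lower than control, against 8.24% and 7.2% of all genes (median 0.00, against -0.12). Cflar, which encodes the caspase-8 regulator cFLIP, had 11.61 with LPS/zVAD/Nec-1, 12.24 with LPS/zVAD, 11.62 with LPS and 9.02 in control, and its ratio of LPS to control was 2.60 (2.80 and 2.81 at its other probes). Birc3, an inhibitor of apoptosis gene, had a ratio of 2.34 and Apaf1, the scaffold of the apoptosome, one of 1.06. Birc2, a close relative of Birc3, had 1.61 at the brighter probe and 0.84 at the other. Birc5, the gene of survivin, which also acts in cell division, was lower, at -1.67.

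With zVAD, 1 of these 17 genes was lower and 0 were higher than with LPS, against 3.59% and 3.25% of all genes (median -0.26, against -0.05). The lower gene was Dffb, a nuclease that caspases release, with 6.51 in LPS/zVAD, just above the filter level, and 7.53 in LPS. Casp9, the initiator caspase of the apoptosome, had 9.02 with LPS/zVAD/Nec-1, 8.11 with LPS/zVAD, 8.96 with LPS and 9.30 in control. LPS/zVAD was thus its lowest array, 1.79-fold below LPS, and LPS/zVAD/Nec-1 was 1.87-fold above LPS/zVAD, both short of 2-fold. Adding Nec-1 to LPS/zVAD left 0 of 17 past 2-fold, against 1.14% higher and 3.32% lower of all genes (median 0.37, against 0.07). Both inhibitors against LPS alone also left 0 of 17, against 0.0738% higher and 0.541% lower (median -0.01, against -0.02).

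Of 18 listed regulators of the family, 17 were measured and 16 passed the filter. With LPS, 4 of 16 were higher and 1 was lower than control, against 8.24% and 7.2% of all genes. Pim1, a kinase gene whose protein can phosphorylate BAD, had 12.38 with LPS/zVAD/Nec-1, 12.86 with LPS/zVAD, 12.15 with LPS and 9.04 in control, or 8.62-fold higher with LPS. Mdm2, which encodes the ubiquitin ligase of p53, had a ratio of 1.60, Ddit3, the gene of the stress factor CHOP, one of 1.40, and Btrc, a ubiquitin ligase subunit gene, one of 1.03, while Myc was at -1.43. With zVAD, 1 of 16 was higher and 0 lower than with LPS, against 3.25% and 3.59% of all genes. It was Atf4, a transcription factor of the integrated stress response, at 11.22 with LPS/zVAD and 10.05 with LPS. With Nec-1, 1 of 16 was lower and 0 higher than with LPS/zVAD, against 3.32% and 1.14% of all genes. It was Mdm2, which had 11.77 with LPS/zVAD/Nec-1, 12.89 with LPS/zVAD, 11.93 with LPS and 10.33 in control. LPS/zVAD was its highest array. Both inhibitors against LPS alone left 0 of 16 past 2-fold, against 0.0738% higher and 0.541% lower. Foxo3, a transcription factor gene known for inducing Bcl2l11 in other cells, had 8.61 with LPS/zVAD/Nec-1, 8.60 with LPS/zVAD, 8.56 with LPS and 9.26 in control. Foxo1, on the same list, had 7.46 with LPS/zVAD/Nec-1, 7.85 with LPS/zVAD, 7.73 with LPS and 7.97 in control. These are RNA signals, and a part of either gene in the Bcl2l11 ratios was not tested.

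**Figure D5:**
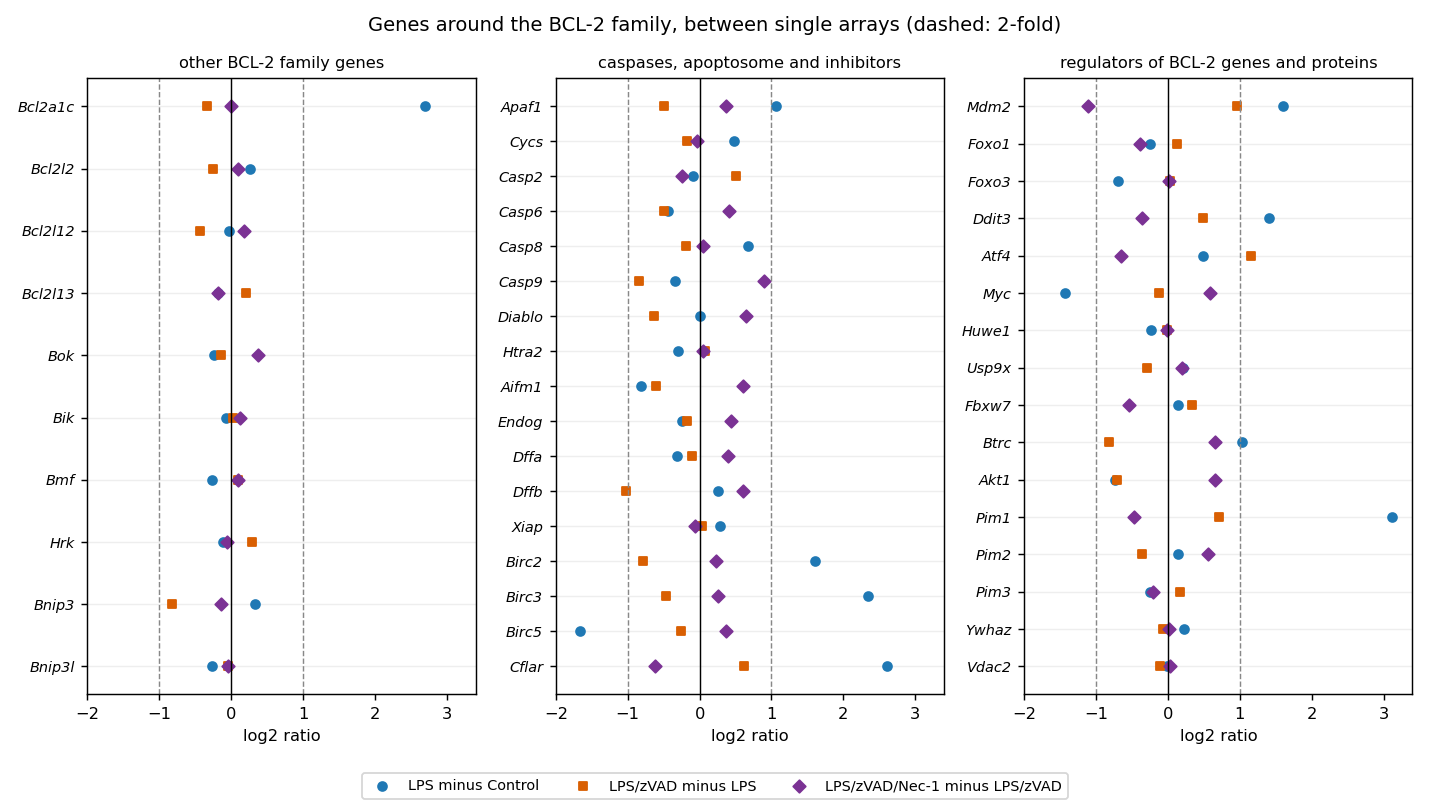
Log2 ratios of the genes past the signal filter in the lists around the BCL-2 family, for LPS against control (circles), LPS/zVAD against LPS (squares) and LPS/zVAD/Nec-1 against LPS/zVAD (diamonds), with dashed lines at 2-fold. Most points past a line are LPS against control, led by Pim1 (3.11), Bcl2a1c (2.70) and Cflar (2.60).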

How the data were processed

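Total RNA of 4 macrophage cultures was hybridised to Affymetrix gene arrays, 1 per group. The deposited values are log2 gene-level signals. The submitters' processing notes name Affymetrix Expression Console as the authors' tool, and the scale was inferred from the range of values, 3.10 to 14.6. Its version, background correction, summarisation and normalization were not given in the sources used here. Of 35556 probes, 21789 had 1 gene symbol in the platform annotation, 1621 several and 12146 none; only the first were used. They gave 19938 genes, and 12203 passed the filter described with the results. Differences were taken between single arrays in pandas 2.3.3, after a check on simulated data with known folds; no test was made. limma 3.58.1 (R 4.3.3) gave quantile and cyclic loess scalings.

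The family genes and the lists were chosen with earlier results of these data known. Genes were named by rule: all family genes, list genes past 2-fold, otherwise up to 4 with the largest ratios, and the 3 nearest profiles. Foxo3, Foxo1, Casp9, Bmf, Bik, Hrk, Ly6g and Mmp8, the GC and CCAAT boxes and the sequences shown were picked after values were seen. Samples were grouped by their titles. The number of arrays limits precision.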

Additional observations from a re-analysis of the deposited data

How the results depend on the processing

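The 9 family genes were recounted under 8 alternatives for each of 4 comparisons. At 2-fold, centred arrays and quantile normalization gave the counts reported. No signal filter, the mean of all probes and signals raised to the filter level could change no value, since each gene had 1 probe and every signal lay above that level. Cyclic loess gave 1 gene for LPS/zVAD against LPS in place of 0 (Bid, 1.01), where 6.34% of all genes passed 2-fold, and the counts reported elsewhere. A 1.5-fold threshold gave 3 genes for LPS against control, 3 for LPS/zVAD against LPS and 2 for LPS/zVAD/Nec-1 against LPS/zVAD. The shares over all genes were 31.64%, 21.13% and 15.5%. For LPS/zVAD/Nec-1 against LPS it gave 0, against 3.49% of all genes. A 3-fold threshold gave 0 in each comparison, against 6.67%, 1.81%, 1.02% and 0.18% of all genes in the same order. These changes follow from moving the threshold. Of 108 gene ratios under the 3 scalings, 101 kept their sign and their side of 2-fold, 1 passed 2-fold (Bid) and 6 changed sign, namely Bcl2l11 for LPS against control, Mcl1 and Bcl2l1 for LPS/zVAD against LPS, and Bbc3 for LPS/zVAD/Nec-1 against LPS. The ratio of Bcl2 for LPS against control ranged from -1.61 to -1.42, and that of Bcl2l11 for LPS/zVAD/Nec-1 against LPS/zVAD from -1.36 to -1.28. The 1.5-fold counts under each scaling were added after the data were seen and are given with the results. No paired analysis was possible because each group had 1 array. Leaving out an array would remove its group.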
